A study of Mus musculus with 9 samples.

Results

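The sphingolipid synthesis and breakdown genes are a set of 32 genes picked by symbol, and all 32 were found among the 21899 genes of the table. They encode serine palmitoyltransferase and its regulators, the ceramide synthases, the enzymes that make or cleave sphingomyelin and glycosphingolipids, the ceramidases, and the enzymes of sphingosine 1-phosphate (S1P). Their mRNA levels were compared in mouse brain tumor stem cells (BTSC) with and without targeting of Gpd1, the gene of cytosolic glycerol-3-phosphate dehydrogenase. Poly(A) RNA of 9 libraries fell into 3 groups of 3: untargeted BTSC (control), BTSC in which Cas9 and sgRNA1 had targeted Gpd1 (sgRNA1 KO), and BTSC targeted with sgRNA2 (sgRNA2 KO). The labels describe the knockout (KO) cells as transfected with lentiCRISPRv2 plasmids, selected with puromycin and expanded from picked colonies that each came from a single cell. The labels give no strain, sex or age. They do not say whether the control cells were picked as colonies, nor whether the 3 libraries of a guide came from separate colonies. If they did not, p-values measure the spread between these libraries only.

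Sphingolipids are built in the endoplasmic reticulum from serine and palmitoyl-CoA, and the first step, catalysed by serine palmitoyltransferase, sets the rate. Ceramide is the hub of the pathway: it receives a phosphocholine head group to become sphingomyelin, or a sugar to become glucosylceramide, the base of the gangliosides that are abundant in brain membranes. Breakdown, much of it in lysosomes, returns ceramide and then sphingosine, which is phosphorylated to S1P, a signal known to favour growth and survival of glioma cells.

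The targeted locus is shown here because a gene of the set, Cers5, is its neighbour. Each guide is written 5′ to 3′ in lower case with the adjacent NGG motif (PAM) in capitals.
sgRNA1: aaagtctgcattgtcggctcTGG
sgRNA2: tgcattgctacccacgatctTGG
In mm10, sgRNA1 matched the plus strand at chr15:99717620-99717639 in exon 1 of the 8 exons of Gpd1, and sgRNA2 the minus strand at chr15:99718169-99718188 in exon 2. Cers5 lies at chr15:99734881-99772885 on the minus strand, 9.9 kb beyond the end of Gpd1.

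Totals ran from 39781901 to 42975283 normalized read counts per library; they follow the authors' scaling, so the sequencing depth itself is unknown. Gpd1 stood at 25106, 26566 and 25836 in control, 3299, 1347 and 21351 with sgRNA1 and 10812, 10812 and 6945 with sgRNA2. All 6 KO libraries lay below all controls, and sgRNA1 KO replicate 3 kept 82.6% of the control mean. The exact permutation test over 84 splits gave a two-sided p of 0.0238, the smallest it can give. In limma Gpd1 missed in KO against control (adjusted p = 0.0516). It passed with sgRNA1 (adjusted p in limma 0.0391) and not with sgRNA2 (0.203). The edits at the locus were not examined, and mRNA levels alone do not show them. Over all genes the KO libraries most like the controls were replicate 3 of sgRNA1 (mean r of 0.964) and replicate 1 of sgRNA2 (0.968), against 0.915 to 0.941 for the other 4 KO libraries. The main counts of called genes are therefore also given without both of them. Because they were picked for their likeness to the controls, leaving them out tends to widen the differences. Calls kept or gained that way are no independent check. The summed level of 12 stem cell markers was 366584 to 408649 in control and 261208 to 372506 in KO, with 3 markers risen (among them Sox2), 2 fallen (Nes and Vim) and Prom1 low throughout. Their called share of 41.7% was near the 39.3% of all genes. The summed level of 15 cell cycle genes was 222931 to 236781 in control and 31966 to 152030 in KO. All 15 were lower in every KO library (100%, against 44.8% of all genes without overlap), and 10 fell in limma (66.7%, against 39.3%). Against control, 14 fell with sgRNA1 (93.3%, against 36.0% of all genes called) and 2 with sgRNA2 (13.3%, against 22.1%). The summed level of 8 astrocyte markers was 70983 to 76141 in control and 89489 to 220997 in KO, but 3 rose, none fell and 5 did not pass. Their called share of 37.5% was near the 39.3% of all genes. Neuron markers (8, nearly all of the sum from Map2) summed to 42949 to 44244 in control and 47898 to 126796 in KO, and 1 of the 6 tested rose (16.7%). Endothelial markers (5 in the table) summed to 588 to 643 and 96 to 262, and pericyte markers (4, mostly Acta2) to 2230 to 2385 and 48 to 384, lower in every KO library. The 5 microglia markers in the table summed to 30 to 35 in control and 34 to 64 in KO. The part of these differences in the results for the sphingolipid genes was not tested, and in bulk RNA fewer cells of a type and less RNA per cell cannot be told apart.

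Setting all 6 KO libraries against the 3 controls asked which steps of sphingolipid metabolism differed between targeted and untargeted cells. The labels describe transfection, puromycin and growth from single cells for the KO cells, and no group carried a guide against another site. Loss of Gpd1 and this handling therefore cannot be told apart in KO against control. The sphingomyelinase genes Smpd1 and Smpd2 and the ceramidase genes Asah1 and Asah2 were higher in KO, while another sphingomyelinase gene, Smpd3, and the genes that put the first sugars on ceramide, Ugcg and B4galt6, were lower. Paralogs within an enzyme family went opposite ways: Sgms1 was higher and Sgms2 lower, and Cers1 was higher while Cers4 and Cers5 were lower. No gene of the first steps of synthesis passed the test. In all, 6 of the 32 genes rose (Smpd1, Asah2, Cers1, Smpd2, Asah1 and Sgms1), 7 fell (Cers4, Sgms2, B4galt6, Sphk1, Ugcg, Cers5 and Smpd3) and 19 did not pass, in limma with a Benjamini-Hochberg adjusted p under 0.05 over all 15827 genes tested. The called share was 40.6%, against 39.3% of all genes tested (19.1% higher and 20.2% lower), so the share of called genes was near the background. The median log2 fold change was -0.02 over the set and -0.01 over all genes. The KO and control libraries did not overlap for 17 of the 32 genes (53.1%, against 44.8% of all genes), of which 9 were higher and 8 lower in KO. The controls were the tightest group. Over the tested genes the median SD of log2(value + 1) was 0.086 in control, 0.323 with sgRNA1 and 0.344 with sgRNA2. The main fit took 1 spread per gene for all groups, so calls and non-overlap counts lean on these 3 tight controls.

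Without sgRNA1 KO replicate 3 and sgRNA2 KO replicate 1, 8 rose and 7 fell (46.9%, against 48.3% of all genes), and each of the 13 genes stayed called in the same direction. Leaving out the KO libraries most like the controls raised the share of all genes called from 39.3% to 48.3%. That choice favours calls, so the kept calls are no independent check. Without control replicate 2 the count was 7 (21.9%, against 17.5% of all genes), and without control replicate 3 it was 8 (25%, against 19%). With quantile normalization 9 rose and 7 fell (50%, against 37.8%).

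**Figure D1:**
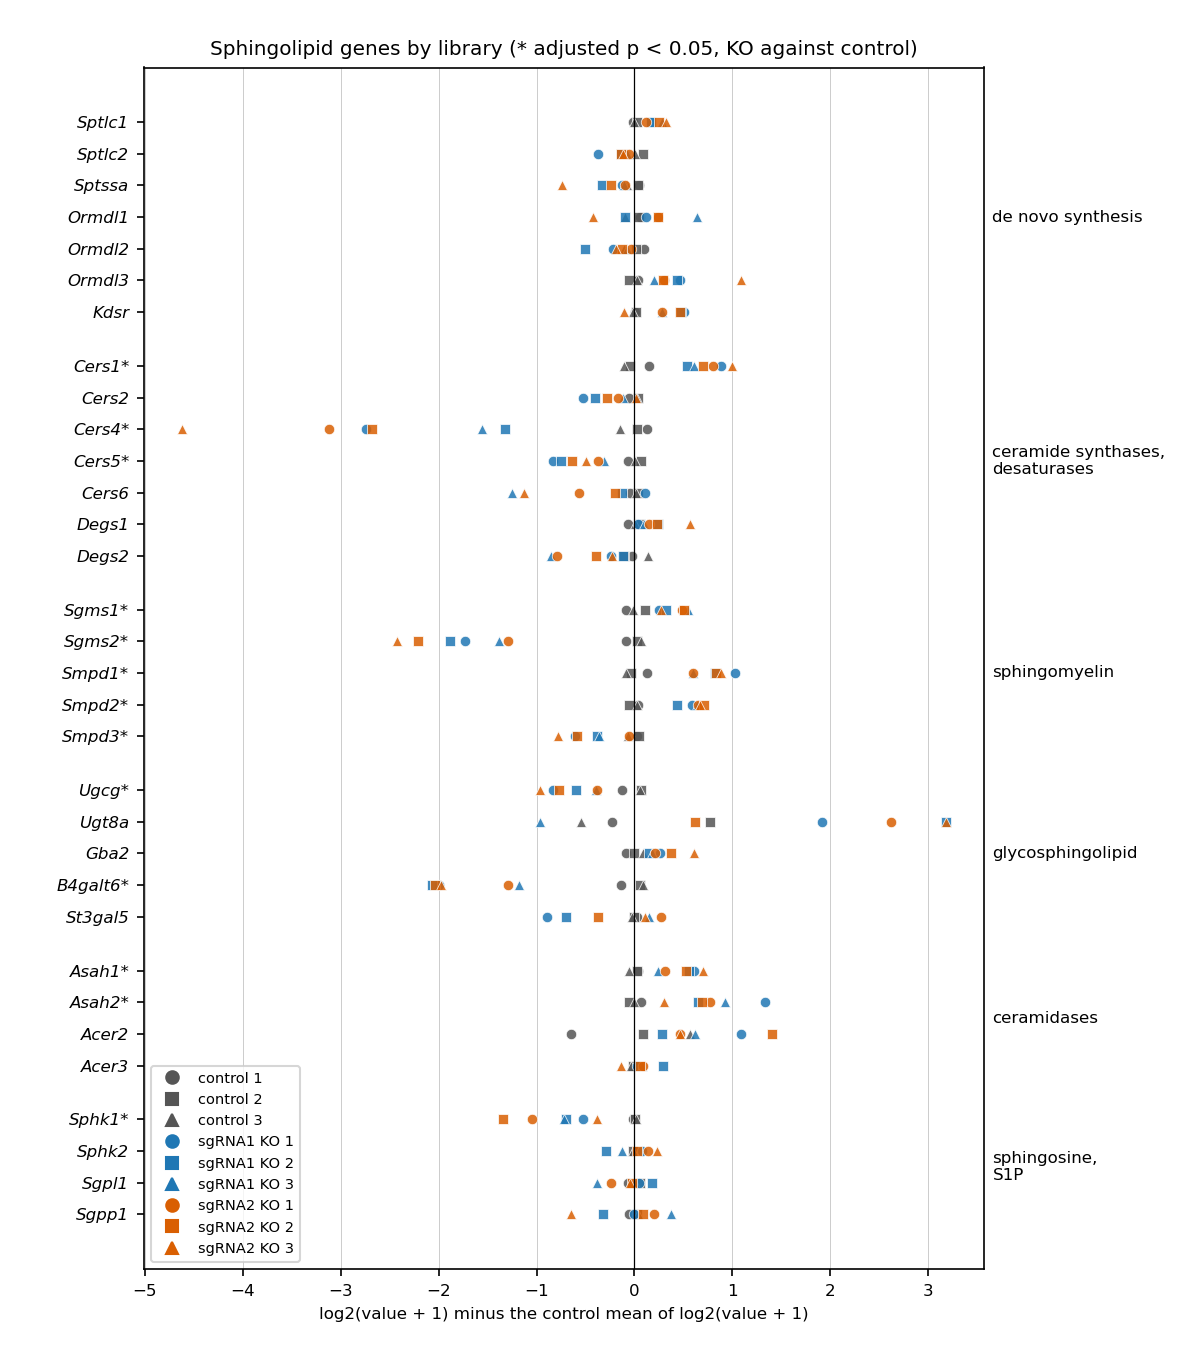
Difference of log2(value + 1) from the control mean for the 32 sphingolipid genes, with 1 point per library; color gives the group, shape the replicate, and an asterisk marks genes with an adjusted p under 0.05 in KO against control. Cers4, Sgms2 and B4galt6 lie farthest to the left, and Ugt8a has the widest spread of the genes with points on the right.

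Of the 5 sphingomyelin enzyme genes 3 rose and 2 fell, where 39.3% of all genes were called; the calls of Smpd3 and Sgms1 were lost under alternatives given beside them. Smpd1, which encodes the acid sphingomyelinase of lysosomes, stood at 1965, 1751 and 1696 in control, 3670, 3195 and 2725 with sgRNA1 and 2723, 3206 and 3311 with sgRNA2. Every KO library was above every control. The mean went from 1804 ± 142 (SD, n = 3) to 3138 ± 364 (SD, n = 6), a log2 fold change of 0.79 (SE 0.12, adjusted p in limma 0.00186).

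Smpd2 encodes a neutral sphingomyelinase. It stood at 1557, 1454 and 1539 in control, 2277, 2053 and 2353 with sgRNA1 and 2385, 2475 and 2419 with sgRNA2. The KO libraries were close to each other and all above the controls, with a log2 fold change of 0.62 (SE 0.10, adjusted p in limma 0.00202). Exons of Mical1 on the opposite strand overlap 20.3% of its exon length, and Mical1 itself stood at 8 to 20 in all libraries.

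Smpd3, the gene of the other neutral sphingomyelinase, which is known for its role in exosome release, went the other way. Its values were 681, 689 and 636 in control, 438, 511 and 520 with sgRNA1 and 645, 445 and 388 with sgRNA2. The groups overlapped, since sgRNA2 KO replicate 1 lay above control replicate 3. The log2 fold change of -0.46 (SE 0.17) only just passed in limma (adjusted p = 0.0490) and missed under 11 of 18 alternative settings. Prmt7 on the opposite strand overlaps 4.7% of its exon length and fell from 3560 to 1579 (log2 fold change -1.28, adjusted p in limma 0.0131), and whether the counting used strand is not given in the sources used here.

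The sphingomyelin synthases convert ceramide and phosphatidylcholine into sphingomyelin and diacylglycerol. Sgms1, the synthase of the Golgi, stood at 1268, 1443 and 1326 in control, 1598, 1674 and 1960 with sgRNA1 and 1875, 1905 and 1626 with sgRNA2. Each KO library lay above the controls, by a log2 fold change of 0.39 (SE 0.11, adjusted p in limma 0.0193). The call was lost without control replicate 1, 2 or 3 (adjusted p = 0.0856, 0.0524 and 0.0800). Sgms2, which also acts at the plasma membrane, stood at 308, 332 and 341 in control, 98, 88 and 125 with sgRNA1 and 133, 70 and 60 with sgRNA2. The highest KO library, at 133, was far below the lowest control, at 308. Its log2 fold change of -1.82 (SE 0.26) had an adjusted p in limma of 0.00156. The ratio of Sgms1 to Sgms2 values was 3.89 to 4.35 in the controls and 14.1 to 27.2 in KO. Per kilobase (kb) of exon, Sgms2 made up 29.2% ± 1.15 (SD, n = 3) of the summed level of the pair in control and 8.30% ± 2.05 (SD, n = 6) in KO.

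**Figure D2:**
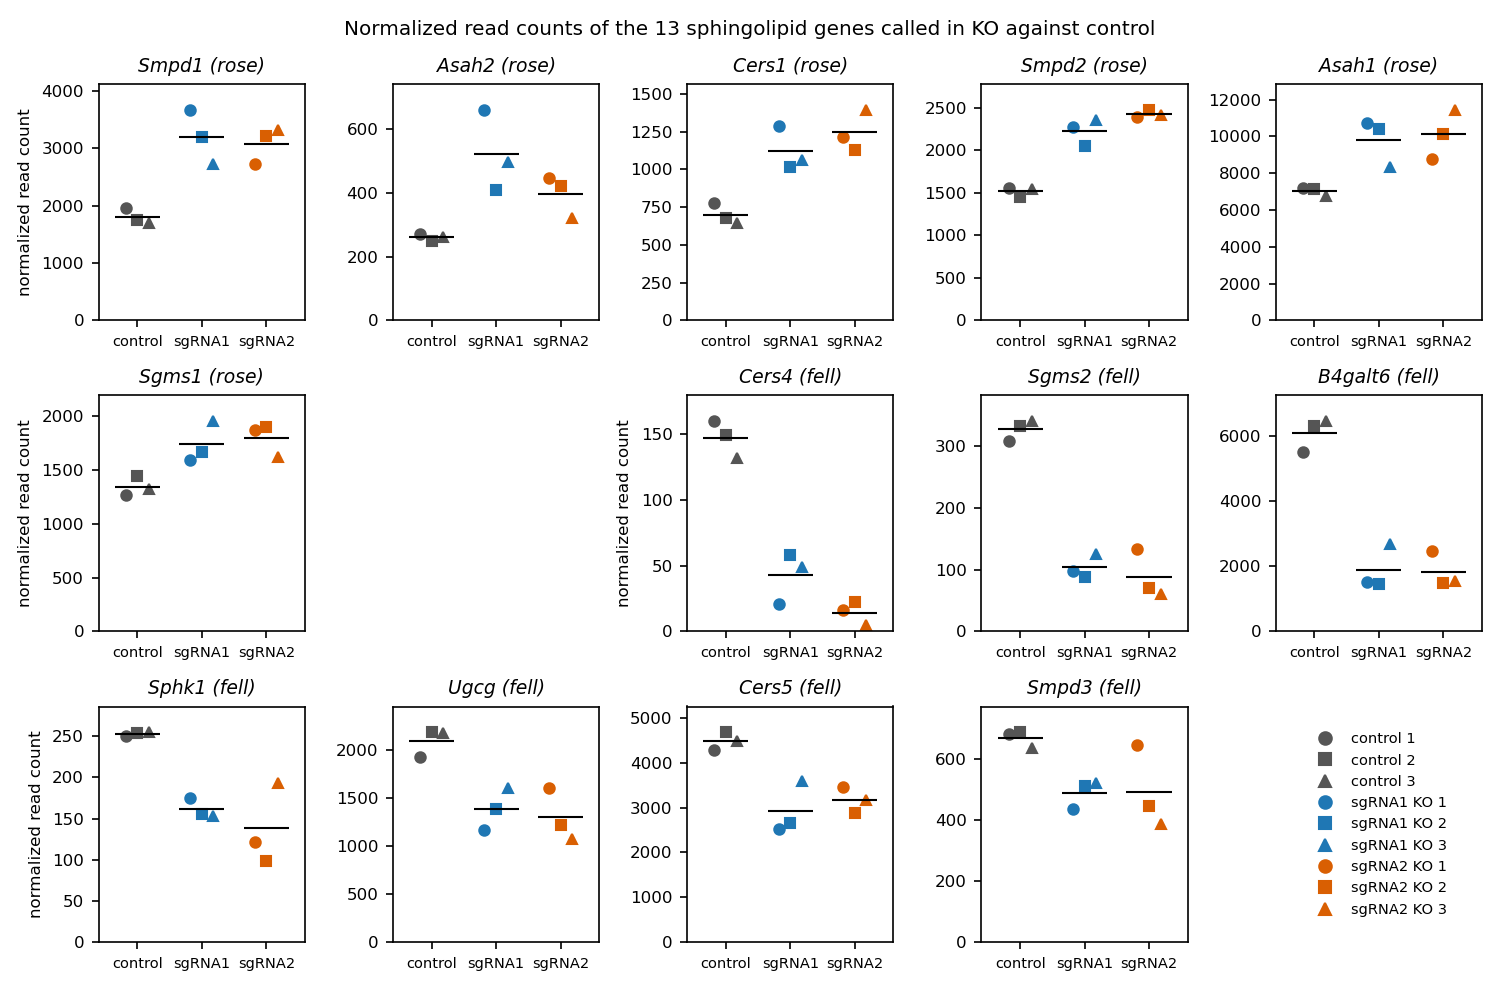
Normalized read count in each of the 9 libraries for the 13 called genes; horizontal bars are group means (n = 3) and each axis starts at 0. For 12 of the 13 genes the KO points lie wholly above or below the controls, and for Smpd3 the value of 645 in sgRNA2 KO replicate 1 lies within them.

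Among the ceramide synthases and desaturases 1 of 7 rose and 2 fell (42.9%, against 39.3% of all genes). Ceramide synthases attach a fatty acid to the sphingoid base, and each prefers certain chain lengths. Cers1, the form typical of neurons, which uses stearoyl-CoA, stood at 775, 677 and 646 in control, 1286, 1014 and 1063 with sgRNA1 and 1215, 1131 and 1395 with sgRNA2. All KO libraries were above the controls, with a log2 fold change of 0.75 (SE 0.13, adjusted p in limma 0.00330). Exons of Gdf1 on the same strand overlap 42.5% of the exon length of Cers1, so reads there could not be assigned to 1 gene with certainty.

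Cers4, which also makes ceramides with longer saturated chains, was lowly expressed and had the largest fall in log2 fold change among the 32 genes in this comparison. It stood at 160, 149 and 132 in control, 21, 58 and 49 with sgRNA1 and 16, 22 and 5 with sgRNA2. The KO mean was 19.4% of the control mean, with a log2 fold change of -2.67 (SE 0.62, adjusted p in limma 0.00966).

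Cers5, the neighbour of Gpd1, prefers palmitoyl-CoA. It stood at 4272, 4684 and 4476 in control, 2518, 2656 and 3599 with sgRNA1 and 3461, 2874 and 3177 with sgRNA2. No KO library reached the controls, with a log2 fold change of -0.57 (SE 0.13, adjusted p in limma 0.00947). The call was lost without control replicate 2 (adjusted p = 0.0528). Within 100 kb of Gpd1, the other protein-coding genes tested were Racgap1, Asic1, Smarcd1, Gm17349, Cox14 and Lima1, which were named for their position. In KO against control none of these 6 passed in limma, with log2 fold changes from -1.13 for Racgap1 (adjusted p = 0.0665) to 0.28 for Asic1 (0.235). All 6 KO libraries of Racgap1, a cytokinesis gene, lay below its controls (2848 to 11299 against 13889 to 14966), and it passed with sgRNA1 alone (adjusted p in limma 0.0300). Without sgRNA1 KO replicate 3 and sgRNA2 KO replicate 1, both Racgap1 (log2 fold change -1.48, adjusted p in limma 0.0204) and Asic1 (0.44, 0.0393) passed. Cox14, 0.6 kb from Gpd1 and between it and Cers5, stood at 2771, 2832 and 2519 in control, 2051, 1976 and 3660 with sgRNA1 and 3180, 2487 and 3952 with sgRNA2. Its KO libraries lay on both sides of the controls, with a log2 fold change of 0.04 (adjusted p in limma 0.897).

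The remaining genes of this subgroup did not pass. Cers2, which makes very long-chain ceramides, averaged 6481 ± 236.5 (SD, n = 3) in the controls and 5502 ± 754 (SD, n = 6) in the KO libraries, with an adjusted p in limma of 0.140. Cers6, the second palmitoyl-CoA form, stood at 420 to 443 in control, and its KO libraries ran from 181 in sgRNA1 KO replicate 3 to 468 in sgRNA1 KO replicate 1 (adjusted p in limma 0.186). Degs1, whose desaturase turns dihydroceramide into ceramide, averaged 6877 ± 296 and 8063 ± 1115 (adjusted p in limma 0.168). Degs2, a related desaturase and hydroxylase gene, stood at 133 to 157 in control and 79 to 132 in KO; all 6 KO libraries were below the controls, but the adjusted p in limma was 0.128.

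Per kb of exon, the order of the 5 ceramide synthases of the set was the same in both groups. In control it ran from Cers2 (1763 normalized read counts per kb) through Cers5 (1264), Cers1 (221) and Cers6 (48.8) to Cers4 (12). In KO the same genes stood at 1497, 860, 373, 35.8 and 2.32. The library ranges of neighbours in this order did not overlap within either group. Exon length merges all annotated exons of a gene (12264 bases for Cers4, 8875 for Cers6), so the order depends on the annotation. Cers3, outside the set, was not placed in the order. It stood at 43 to 59 in control and 18 to 98 in KO, over 3256 bases of exon. Cers1 made up 6.68% ± 0.83 of the summed level of the 5 synthases in the controls (SD, n = 3), and 13.6% ± 1.90 in the KO libraries (SD, n = 6). Cers5 made up 38.2% ± 0.57 and 31.0% ± 2.02, and Cers2 53.3% ± 0.61 and 54% ± 1.90. The shares of Cers1 and Cers5 did not overlap between the groups, while that of Cers2 did.

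**Figure D3:**
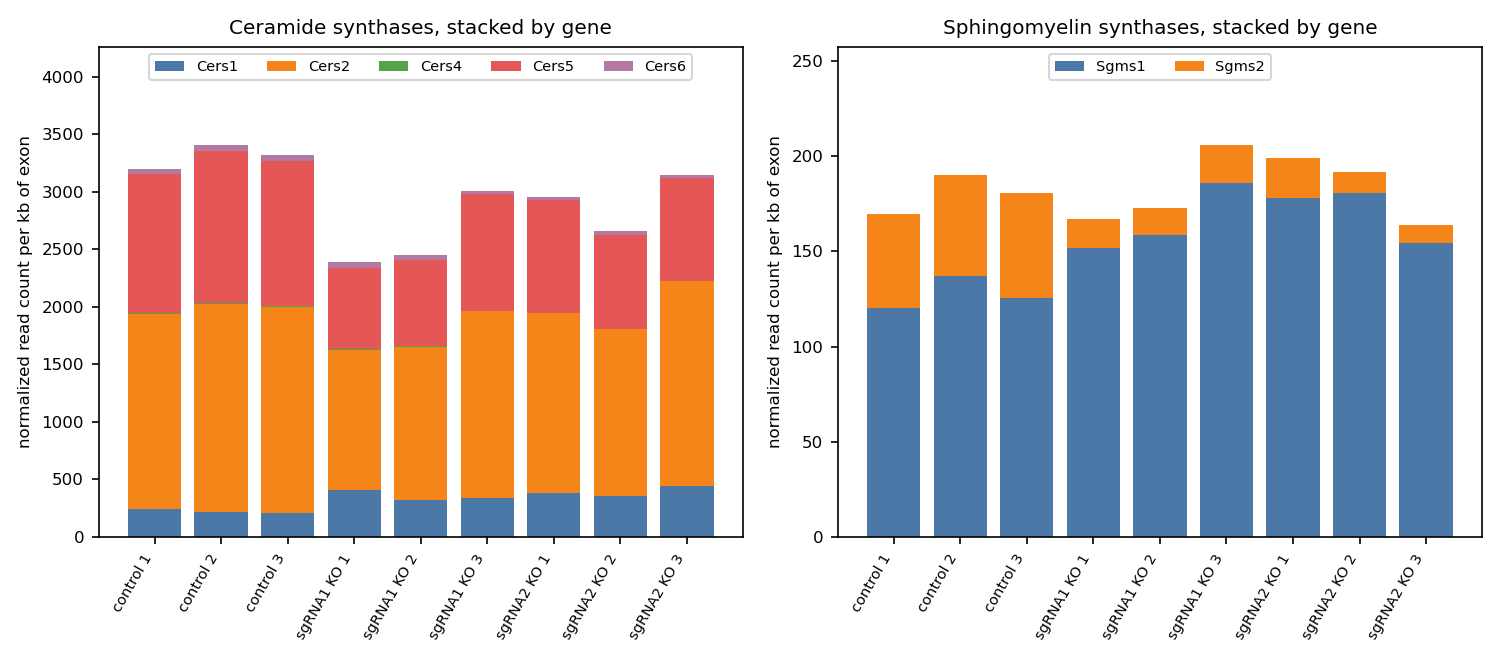
Normalized read count per kb of exon for the 5 ceramide synthases and the 2 sphingomyelin synthases of the set, stacked by gene, with 1 bar per library from 0. The Cers1 and Sgms1 blocks are taller, and the Cers5 and Sgms2 blocks shorter, in each KO bar than in each control bar; Cers4 is too low to stand out on this scale.

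In glycosphingolipid synthesis 2 of 5 genes fell and none rose (40%, against 39.3% of all genes). Ugcg, which encodes the glucosylceramide synthase that opens this branch, stood at 1925, 2191 and 2183 in control, 1173, 1384 and 1601 with sgRNA1 and 1611, 1224 and 1074 with sgRNA2. The groups did not overlap, with a log2 fold change of -0.66 (SE 0.15, adjusted p in limma 0.00941); without control replicate 2 the adjusted p was 0.0514. B4galt6, a lactosylceramide synthase that adds the next sugar, stood at 5502, 6287 and 6456 in control, 1522, 1445 and 2678 with sgRNA1 and 2478, 1481 and 1544 with sgRNA2. It was the gene of the set with the smallest adjusted p in this comparison: the KO mean was 30.6% of the control mean, with a log2 fold change of -1.76 (SE 0.22, adjusted p in limma 0.000926). The KO libraries nearest the controls were sgRNA1 KO replicate 3 and sgRNA2 KO replicate 1, and without both the log2 fold change was -2.02.

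St3gal5, the gene of the synthase that turns lactosylceramide into the simplest ganglioside, did not follow. It stood at 1186, 1160 and 1142 in control, 625, 713 and 1291 with sgRNA1 and 1404, 897 and 1250 with sgRNA2. Of the 6 KO libraries 3 lay below and 3 above the controls, with a log2 fold change of -0.24 (SE 0.26, adjusted p in limma 0.485). Gba2, the non-lysosomal glucosylceramidase gene, stood at 1966 to 2223 in control and 2312 to 3192 in KO. All 6 KO libraries were above the controls, with an adjusted p in limma of 0.0749. Ugt8a, which makes the galactosylceramide of myelin, was low, at 4, 9 and 3 in control, 21, 52 and 2 with sgRNA1 and 35, 8 and 52 with sgRNA2. Its groups overlapped and it did not pass (adjusted p in limma 0.134), but without sgRNA1 KO replicate 3 and sgRNA2 KO replicate 1 it did (0.0280). The summed level of the 10 oligodendrocyte markers was 4517 to 6029 in control and 9964 to 27505 in KO. Of the 6 markers tested, 1 rose, 1 fell and 4 did not pass (33.3% called, against 39.3% of all genes). The myelin genes Mog and Mag stood at 0 to 4 in all libraries. The part of these markers in the Ugt8a values was not tested.

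Of the ceramidases, which release sphingosine from ceramide, 2 of 4 rose and none fell (50%, against 39.3% of all genes). Asah1, the acid ceramidase gene of lysosomes, stood at 7204, 7164 and 6772 in control, 10729, 10380 and 8344 with sgRNA1 and 8752, 10114 and 11447 with sgRNA2. All KO libraries were above the controls, with a log2 fold change of 0.49 (SE 0.12, adjusted p in limma 0.0101); without control replicate 3 the adjusted p was 0.0538. Asah2, the neutral ceramidase gene, stood at 272, 250 and 260 in control, 660, 409 and 495 with sgRNA1 and 446, 422 and 321 with sgRNA2. KO and control did not overlap, with a log2 fold change of 0.78 (SE 0.21, adjusted p in limma 0.0157); without control replicate 2 or 3 the adjusted p was 0.0697 and 0.0615. Of the alkaline ceramidase genes, Acer3 averaged 2021 ± 66.0 in control and 2121 ± 204 in KO (adjusted p in limma 0.649). Acer2 was low, at 11 to 27 in control and 22 to 49 in KO (adjusted p in limma 0.119).

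Among the sphingosine and S1P genes 1 of 4 fell (25%, against 39.3% of all genes). Sphk1, a sphingosine kinase gene whose product makes S1P at the plasma membrane, stood at 250, 253 and 255 in control, 175, 155 and 153 with sgRNA1 and 122, 99 and 193 with sgRNA2. All KO libraries were below the tight controls, with a log2 fold change of -0.79 (SE 0.22, adjusted p in limma 0.0193). The call was lost without control replicate 1, 2 or 3 (adjusted p = 0.0627, 0.0755 and 0.0740). Sphk2, the kinase gene whose product is found in nuclei and mitochondria, averaged 1332 ± 23.1 in control and 1350 ± 173 in KO (adjusted p in limma 0.960). Per kb of exon, Sphk1 made up 14.2% ± 0.33 of the pair in the controls (SD, n = 3), and 8.86% ± 2.0 in the KO libraries (SD, n = 6). Of the genes that remove S1P, the lyase gene Sgpl1 averaged 12650.3 ± 523 and 12082 ± 1651 (adjusted p in limma 0.647), and the phosphatase gene Sgpp1 1959 ± 71.4 and 1938 ± 468 (0.852).

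None of the 7 genes of the first steps of synthesis passed in limma in the main fit (0%, against 39.3% of all genes). Some passed under alternatives. With variance weights per group these were Sptlc1, Sptssa, Ormdl3 and Kdsr, where 56% of all genes were called. Quantile normalization added Sptlc1 and Ormdl3 (37.8% of all genes). Leaving out sgRNA2 KO replicate 3 added Sptlc1, Ormdl3 and Kdsr (48% of all genes). Sptlc1 and Sptlc2 encode the catalytic pair of serine palmitoyltransferase. Sptlc1 stood at 2456 to 2520 in control and 2693 to 3107 in KO, higher in 6 of 6 KO libraries (log2 fold change 0.22, SE 0.09, adjusted p in limma 0.0709). Sptlc2 stood at 2574 to 2907 and 2114 to 2634 (adjusted p in limma 0.251). Sptssa, the gene of the small subunit that activates the enzyme, stood at 3385 to 3684 in control and 2130 to 3349 in KO, lower in 6 of 6 (adjusted p in limma 0.163). The Ormdl proteins restrain the enzyme when ceramide is plentiful. Ormdl3 stood at 2397, 2255 and 2384 in control, 3242, 3177 and 2695 with sgRNA1 and 2897, 2872 and 4998 with sgRNA2. It was higher in 6 of 6 KO libraries but missed (log2 fold change 0.47, SE 0.18, adjusted p in limma 0.0636), and it passed without sgRNA1 KO replicate 3 and sgRNA2 KO replicate 1 (0.0368). Ormdl1 averaged 1537 ± 91.0 and 1711 ± 419 (adjusted p in limma 0.652), and Ormdl2 743 ± 53.3 and 652.5 ± 72.3 (0.269); exons of Dnajc14 on the opposite strand overlap 66.7% of the exon length of Ormdl2. Kdsr, the gene of the reductase that follows serine palmitoyltransferase, averaged 1861 ± 19.9 and 2342 ± 343 (adjusted p in limma 0.0967), with sgRNA2 KO replicate 3 at 1731 below the controls and the other 5 KO libraries above them.

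A fit with 3 groups then set the libraries of each guide against the controls, which both guides share. With sgRNA1, 5 of the 32 genes rose and 5 fell (31.2%, against 36.0% of all genes). With sgRNA2, 4 rose and 6 fell (31.2%, against 22.1% of all genes). For sgRNA1, leaving out control replicate 2 lowered the count from 10 to 3 (9.38%, against 8.01% of all genes), leaving out control replicate 3 lowered it to 4 (12.5%, against 9.74%), and leaving out its own replicate 1 to 5 (15.6%, against 12.3%). Without sgRNA1 KO replicate 3 and sgRNA2 KO replicate 1 it was 15 (46.9%, against 51.6%). For sgRNA2, the count went from 10 to 4 (12.5%) when control replicate 2 or 3 was left out, against 4.06% and 4.35% of all genes. It was 6 (18.8%) without control replicate 1 or its own replicate 2, against 8.34% and 9.04%. Without both KO libraries most like the controls it was 16 (50%, against 39.4%). Side by side, the log2 fold changes of Sgms2 were -1.66 with sgRNA1 and -1.97 with sgRNA2, those of B4galt6 -1.75 and -1.77, and those of Smpd1 0.82 and 0.77. Asah2 passed with sgRNA1 (log2 fold change 0.97, adjusted p in limma 0.0131) and not with sgRNA2 (0.59, 0.0784). Sphk1 passed with sgRNA2 (-0.92, adjusted p in limma 0.0321) and not with sgRNA1 (-0.65, 0.0701).

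The guides were tested against each other in the same fit, and limma called 0 of the 32 genes and 0 of all 15827 (0%). At an unadjusted p under 0.05 there were 474 genes (2.99%), of which 1 was in the set, Cers4. It was lower with sgRNA2 than with sgRNA1 by a log2 difference of -1.60, with a 95% interval from -2.81 to -0.39 (unadjusted p in limma 0.0154, adjusted p = 0.778). The interval of the difference was -0.63 to 0.59 for B4galt6, -1.0 to 0.38 for Sgms2, -0.38 to 0.28 for Smpd1, -0.87 to 0.11 for Asah2 and -0.84 to 0.29 for Sphk1. These intervals do not show that the guides act alike.

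**Figure D4:**
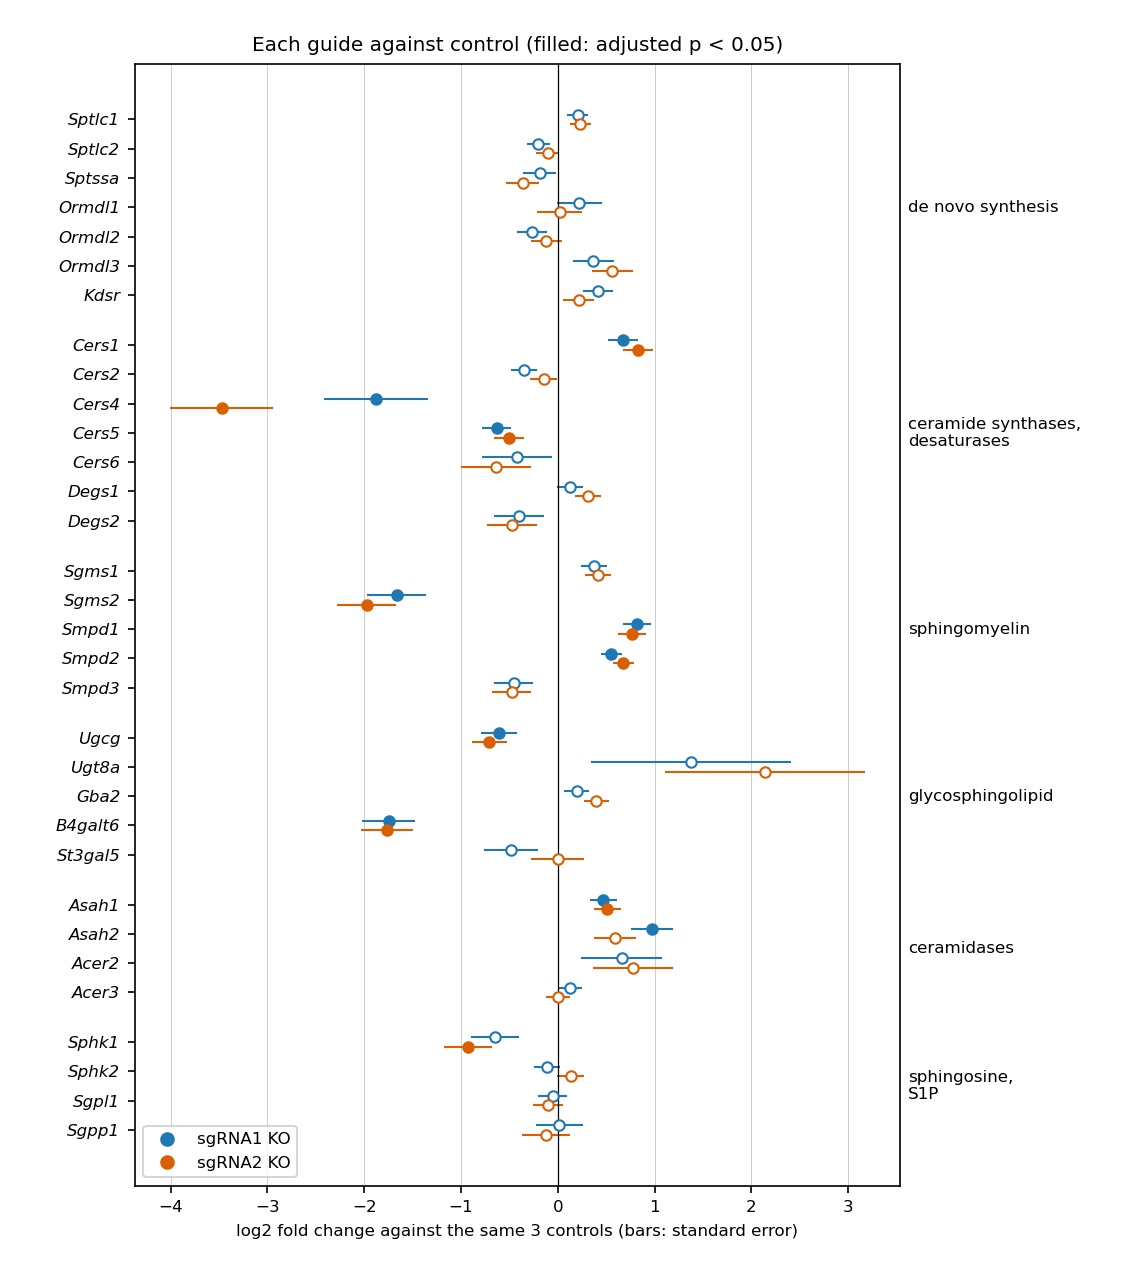
Log2 fold change of the 32 genes with each guide against the same 3 controls; bars are standard errors and filled points have an adjusted p under 0.05. The points of the 2 guides lie near each other for most genes, and farthest apart for Cers4, at -1.88 with sgRNA1 and -3.47 with sgRNA2.

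Promoter sequences are shown for a pair of genes that rose (Smpd1 and Smpd2) and a pair that fell (Ugcg and Cers5), chosen after their values were seen from genes with a single RefSeq start. They span 250 bases before to 50 after the start in RefSeq (GRCm38.p6), 5′ to 3′ on the gene's strand. Capitals mark every match to the E-box CACGTG, the GC box GGGCGG or CCAAT, on either strand, and matches that touch run together.
Smpd1: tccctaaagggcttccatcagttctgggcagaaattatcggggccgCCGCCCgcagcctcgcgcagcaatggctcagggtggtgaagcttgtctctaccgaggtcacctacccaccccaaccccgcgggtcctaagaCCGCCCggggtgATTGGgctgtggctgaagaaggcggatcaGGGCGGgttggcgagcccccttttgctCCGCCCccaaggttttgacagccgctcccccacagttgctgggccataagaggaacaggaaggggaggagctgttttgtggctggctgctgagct
Smpd2: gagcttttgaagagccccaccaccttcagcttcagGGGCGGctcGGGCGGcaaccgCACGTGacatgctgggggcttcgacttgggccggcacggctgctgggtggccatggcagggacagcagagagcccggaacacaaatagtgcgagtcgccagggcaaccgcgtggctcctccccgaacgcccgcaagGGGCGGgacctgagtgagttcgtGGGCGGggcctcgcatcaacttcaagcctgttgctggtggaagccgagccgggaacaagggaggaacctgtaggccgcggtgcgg
Ugcg: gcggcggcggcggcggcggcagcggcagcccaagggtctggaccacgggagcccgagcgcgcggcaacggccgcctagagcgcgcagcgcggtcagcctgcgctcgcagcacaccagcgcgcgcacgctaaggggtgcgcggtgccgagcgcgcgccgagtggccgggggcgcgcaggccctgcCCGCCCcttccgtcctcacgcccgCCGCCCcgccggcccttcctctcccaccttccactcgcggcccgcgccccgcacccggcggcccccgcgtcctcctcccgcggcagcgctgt
Cers5: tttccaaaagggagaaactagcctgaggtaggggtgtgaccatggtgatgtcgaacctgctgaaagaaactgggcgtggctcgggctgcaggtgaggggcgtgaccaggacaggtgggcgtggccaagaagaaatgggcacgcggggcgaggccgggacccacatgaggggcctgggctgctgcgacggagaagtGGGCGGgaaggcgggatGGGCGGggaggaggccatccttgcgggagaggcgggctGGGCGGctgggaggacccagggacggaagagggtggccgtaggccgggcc
These windows lie at chr7:105554110-105554409 (Smpd1, plus strand), chr10:41490291-41490590 (Smpd2, minus strand), chr4:59189300-59189599 (Ugcg, plus strand) and chr15:99772466-99772765 (Cers5, minus strand). The E-box was in the window of Smpd2 and in none of the other 3, CCAAT was in that of Smpd1, and GGGCGG was in all 4. Of the 32 genes, 29 had a promoter entry. Among these, 6 (20.7%) held CACGTG in at least 1 window, 24 (82.8%) GGGCGG and 15 (51.7%) CCAAT, against 10.8%, 63.3% and 42.1% of the 12752 genes of the table with an entry. Over all 32851 windows the shares were 7.15%, 35.7% and 37.4%. A gene with several windows, such as Sgms1, Sgms2 or Sphk1, has more chances to hold a match. All 32 genes passed the expression filter, which was not applied to the 12752. The shares are therefore not like for like and cannot be read as enrichment. A match is a run of letters and does not mark a bound site.

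The same pathway was followed in lists of further genes. A lysosomal list held hydrolases and activators that strip sphingolipids down to ceramide and sphingosine, and also Npc1, Npc2, Ctsa and Scarb2, which do not cleave them. In it 11 of 14 genes had risen and none had fallen, with a median log2 fold change of 0.90 against -0.01 over all genes. The called share was 78.6%, against 39.3% of all genes. Npc2, a lysosomal sterol carrier, stood at 6084, 6006 and 6063 in control, 15989, 18426 and 11925 with sgRNA1 and 12624, 16208 and 15682 with sgRNA2. All KO libraries were above the controls (log2 fold change 1.31, SE 0.14, adjusted p in limma 0.000502). Hexa, a hexosaminidase subunit that trims gangliosides, went from 3025 ± 121 (SD, n = 3) to 8921 ± 2589 (SD, n = 6), with a log2 fold change of 1.51 (SE 0.21, adjusted p in limma 0.00128). The genes of this list that did not pass were Gla, Glb1 and Scarb2. Without sgRNA1 KO replicate 3 and sgRNA2 KO replicate 1, 12 of 14 rose and none fell (85.7%, against 48.3% of all genes). Of the 32 genes of the set, Smpd1 and Asah1 act in the same compartment, and both rose.

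Of the ganglioside, globoside and sulfatide genes 5 of 16 rose and 3 fell (50%, against 39.3% of all genes; median 0.03). B4galt5, the paralog of B4galt6 in lactosylceramide synthesis, fell from 2676 ± 56.0 (SD, n = 3) to 1366 ± 403 (SD, n = 6), a log2 fold change of -1.02 (SE 0.23, adjusted p in limma 0.00885). B3gnt5, which starts the lacto-series, fell from 814 ± 10.3 to 250.2 ± 120 (log2 fold change -1.92, adjusted p in limma 0.0175), a call lost without control replicate 1, 2 or 3 (0.0552, 0.0658 and 0.0636). B3galt4, a late ganglioside galactosyltransferase, rose from 45 ± 13.2 to 116.5 ± 47.0 (log2 fold change 1.32, adjusted p in limma 0.0130), a call lost without control replicate 3 (0.0710). Fa2h, a fatty acid hydroxylase of myelin lipids, stood at 4, 2 and 2 in control and 9 to 74 in KO (adjusted p in limma 0.0114), and its call was lost without control replicate 2 or 3 (0.0538 and 0.0518). The other called genes, named after their values were seen, were St8sia1, which fell (log2 fold change -0.77), and B4galnt1, Neu3 and Neu4, which rose (1.31, 0.53 and 1.73). Without sgRNA1 KO replicate 3 and sgRNA2 KO replicate 1, 5 rose and 6 fell (68.8%, against 48.3% of all genes).

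Other ceramide enzymes and transfer proteins had 4 of 13 tested genes risen and 4 fallen (61.5%, against 39.3% of all genes; median -0.18). Samd8, a relative of the sphingomyelin synthases that senses ceramide, rose from 5783 ± 76.5 (SD, n = 3) to 7764 ± 503 (SD, n = 6), a log2 fold change of 0.42 (adjusted p in limma 0.00609). Smpdl3a, an acid sphingomyelinase-like gene, rose from 1201 ± 77.2 to 2204 ± 436 (log2 fold change 0.85, adjusted p in limma 0.00609). Cptp, the gene of the ceramide 1-phosphate transfer protein, fell from 1278 ± 58.4 to 820 ± 175 (log2 fold change -0.67, adjusted p in limma 0.0171), and Smpdl3b fell from 2939 ± 27.2 to 1386 ± 654 (-1.23, 0.0267). Both falls missed when any 1 control was left out, with adjusted p from 0.0516 to 0.0859. The remaining called genes, named after their values were seen, were Cerk and Aldh3a2, which rose (0.42 and 0.60), and Smpd4 and Gltp, which fell (-0.51 and -0.27). With both KO libraries most like the controls left out, 4 rose and 5 fell (69.2%, against 48.3% of all genes).

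**Figure D5:**
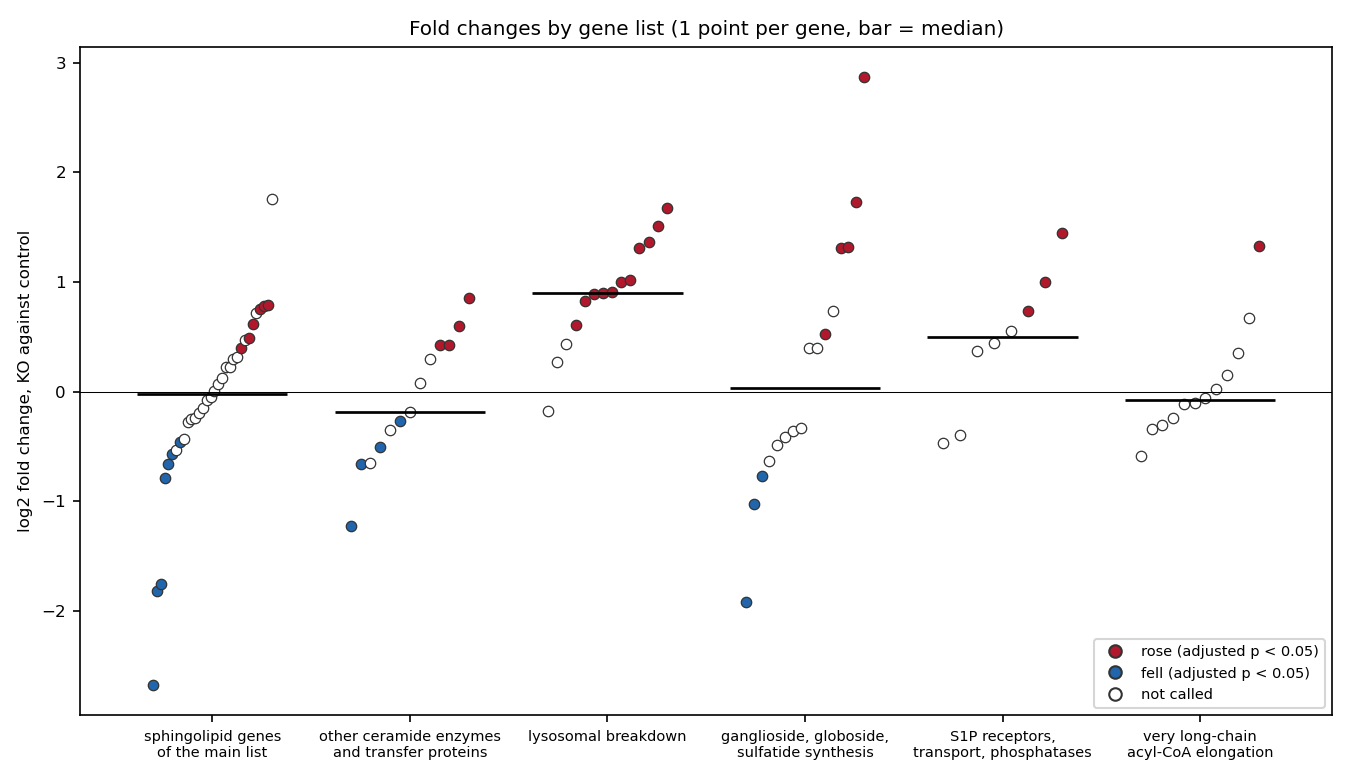
Log2 fold change in KO against control, with 1 point per tested gene, for the 32 sphingolipid genes and 5 lists of further genes; filled points were called and bars are list medians. The lysosomal list has its median at 0.90, while those of the set and of the ganglioside list lie near 0 with called genes on both sides.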

How the data were processed

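The 32 genes, the gene lists and the comparisons were chosen with earlier results of these data known. The deposited table gives 21899 genes in 9 libraries. Judged from the values, each entry is a score: whole numbers that the authors obtained by rounding read counts after library scaling, called normalized read counts here. The tools named in the submitters' processing notes are STAR (2.4.1d), featureCounts and DESeq2, and the build is mm10; the annotation release is not given in the sources used here. Values were tested as log2(value + 1) for 15827 genes, those whose mean over the libraries was 10 or more, with limma 3.58.1 (R 4.3.3), a mean-variance trend and Benjamini-Hochberg adjustment, two-sided. The added 1 understates fold changes of low genes. KO against control used 2 groups; the guide comparisons used 1 fit with 3 groups. Rounded scaled values do not suit a count test, so none was run.

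Each of the 32 genes is reported, with every library where it was called. From each further list the text names up to 2 risen and 2 fallen genes with the smallest adjusted p; others are marked. Positions, overlaps and exon lengths came from GENCODE M21 (99.6% of gene IDs matched), promoters from RefSeq. The code was tested on simulated data. Alternatives were other pseudocounts, filters and scalings, group variance weights, a replicate block and libraries left out. Figures used Python 3.11.15 with matplotlib 3.10.9.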

Additional observations from a re-analysis of the deposited data

Results flagged for a closer look

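In 4 of 46 genes checked, 1 KO library stood apart from the other 5 by Dixon's criterion; chance flags about 1 in 20. Ormdl3 was 4998 in sgRNA2 KO replicate 3, against 3242 in the next library. Degs1 was 10181 in the same library, against 8122 in the next. Hexa was 13646 there, against 9022. Sptlc2 was 2114 in sgRNA1 KO replicate 1, against 2487 in the next lowest library.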

How the results depend on the processing

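The number of the 32 genes called in KO against control (13) lay between 12 and 16 under the other pseudocounts, filters and scalings. The share was 37.5% to 50% there, against 29.7% to 42.4% of all genes. The number was 20 (10 risen, 10 fallen) with variance weights per group. The weights called 62.5% of the set, against 56% of all genes. The 7 genes gained with them were Sptlc1, Sptssa, Ormdl3, Kdsr, Cers2, Cers6 and Gba2. Leaving out 1 library at a time gave 7 (21.9%, against 17.5% of all genes) to 18 (56.2%, against 48%). No called gene changed sign under any alternative. Smpd1, Smpd2, Cers1, Cers4, Sgms2 and B4galt6 passed under every alternative run. For sgRNA1 against control (10), leaving out 1 library gave 3 (9.38%, against 8.01% of all genes) to 15 (46.9%, against 42.6%). For sgRNA2 (10) it gave 4 (12.5%, against 4.06% and 4.35%) to 13 (40.6%, against 34.6%). Leaving out both KO libraries nearest the controls gave 16 for sgRNA2 (50%, against 39.4%). Between guides the count was 0 under every alternative. Over all genes (6227), leaving out 1 library gave 2777 (without control replicate 2) to 7597; without control replicate 3 or 1 it gave 3006 and 3904. For the further pathway genes, 31 of 63 were called (49.2%, against 39.3% of all genes), and leaving out 1 library gave 15 to 37. The counts were 15, 16 and 20 without control replicate 3, 2 and 1, where 19%, 17.5% and 24.7% of all genes were called. Gpd1 had a log2 fold change of -1.99 (adjusted p in limma 0.0516); with variance weights it was -2.0 (0.00375), without both KO libraries nearest the controls -2.59 (0.0116), and without 1 library from -2.33 to -1.53. The causes were not tested.

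The replicate numbers were treated as names only. Deviations from group means correlated from -0.345 to 0.332 between same-numbered libraries of different groups, and from -0.525 to 0.523 between other-numbered ones. Of 9 libraries, 4 correlated best with their own number. With 3 libraries per group the deviations are tied to each other, so the correlations cannot show whether the numbers carry a pairing. With the replicate block, 12 of the 32 genes were called in KO against control (37.5%, against 36.6% of all genes), and Smpd3 was lost. The block left 8 called in sgRNA1 against control (25%, against 33.1%) and 6 in sgRNA2 against control (18.8%, against 16.6%). Low values limit Ugt8a, Acer2 and Fa2h, with under 30 normalized read counts in each control.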

Other observations

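S1P receptors, transporters and phosphatases had 3 of 8 tested genes risen and none fallen (37.5%, against 39.3% of all genes). S1pr1, an S1P receptor gene, stood at 1171, 1105 and 1070 in control, 5289, 4718 and 1661 with sgRNA1 and 2247, 3685 and 2281 with sgRNA2. All KO libraries were above the controls, with a log2 fold change of 1.44 (SE 0.35, adjusted p in limma 0.0109). Plpp3, a phosphatase gene whose product removes extracellular S1P, rose from 11610 ± 964 (SD, n = 3) to 23954 ± 6332 (SD, n = 6), a log2 fold change of 1.0 (adjusted p in limma 0.00707). The third called gene, Mfsd2b, an S1P exporter gene named after its values were seen, rose from 48.3 ± 11.8 to 80 ± 7.04 (log2 fold change 0.74, adjusted p in limma 0.0164). With both KO libraries most like the controls left out, 3 rose and 1 fell (50%, against 48.3% of all genes).

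Of the genes that lengthen acyl-CoA for very long-chain ceramides, 1 of 12 rose and none fell (8.33%, against 39.3% of all genes). Elovl7 rose from 113 ± 9.24 (SD, n = 3) to 301 ± 112 (SD, n = 6), a log2 fold change of 1.33 (SE 0.30, adjusted p in limma 0.00901). Without sgRNA1 KO replicate 3 and sgRNA2 KO replicate 1, 3 rose and 3 fell (50%, against 48.3% of all genes).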
